A study of Homo sapiens with 12 samples.

Results

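NF-kappaB is a family of transcription factors that switch on inflammatory and survival genes, and 36 genes of its pathway and its targets were examined here. They were taken by name from a fixed list, out of 38516 genes in the table, and all 36 had a row. Among them, TNIP2 was on the list because it was among the strongest falls after silencing of HCP5 in KYSE150 cells. The KYSE150 change of the members is therefore given below as a description. Counts of members past the threshold there are printed, but nothing is read from them. RNA sequencing covered 12 libraries in 4 groups of 3: KYSE150 control, KYSE150 HCP5-silenced, KYSE510 control and KYSE510 HCP5-silenced. Both are established human lines of esophageal squamous cell carcinoma (ESCC), all grown in RPMI-1640 medium with serum. HCP5 is a long non-coding RNA, and the labels do not give the reagents used to silence it or to treat the controls. The labels do not say whether the 3 libraries of a group came from separate cultures, so the spread between them may be technical. Levels are RPKM, which divides a gene's reads by its exon length and by the library's total, and differences are on the log2(RPKM + 0.5) scale.

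In resting cells, dimers of the REL-family proteins are held in the cytoplasm by inhibitor of kappaB (IkappaB) proteins. Receptors such as those for tumour necrosis factor and interleukin-1 act through TRAF adaptors and the IkappaB kinase complex, which marks IkappaB for destruction and lets the dimers enter the nucleus. Several of their target genes, among them NFKBIA and TNFAIP3 (the gene of A20, an enzyme that edits ubiquitin chains), encode inhibitors of the same pathway, and the TNIP proteins bind A20.

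The 25 of 32 members that differed between the control lines did so in both directions. After HCP5 silencing in KYSE510, TNIP2 had the lowest log2 difference of the tested members but missed the threshold (limma adjusted p 0.0667). It was also the lowest in KYSE150, the contrast that put it on the list. KYSE510 controls held more NFKBIA, BCL3, SOD2, TNFAIP2, TNIP3 and CXCL1, and KYSE150 controls held more MAP3K14, IL6, IL1A, IL1B, ICAM1 and NFKBIB. Of the 25, 14 were higher in KYSE510 and 11 higher in KYSE150; without TNIP2, whose choice used the KYSE150 controls, they were 24 of 31. Over all 17823 genes tested, 62.0% passed the same test between control lines (limma, adjusted p under 0.05), 28.3% higher in KYSE510 and 33.7% higher in KYSE150, so the members' counts stand against a large background. Members called with a difference of at least 1 on the log2 scale numbered 15 of 32, 9 higher in KYSE510 and 6 higher in KYSE150, where 21.1% of all genes were. These counts hold 5 members that reached 0.5 RPKM in 3 libraries through 1 line alone: TRAF1, TNIP3, CXCL1 and CXCL8 in KYSE510 and IL6 in KYSE150. Passing the filter in that way favours a difference between the lines, so their differences are given below as descriptions. With 0.5 RPKM asked of 3 libraries of each line, a filter chosen after seeing the data, 20 of 27 members passed, 10 in each direction, where 59.1% of 14544 genes did, and 11 of 27 by at least 1, where 15.4% did. These are counts for 2 cell lines, not for kinds of tumour.

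The libraries held 20035025 to 28202422 reads assigned to genes, and every silenced library of KYSE150 was deeper than every control of that line. HCP5 was at 0.745 to 0.786 RPKM in KYSE150 controls and 0.315 to 0.579 in silenced libraries, and at 0.914 to 1.85 and 0.505 to 0.951 in KYSE510, where these groups overlap. The labelled cell type was checked against markers: 10 of 12 squamous epithelial markers had at least 1 RPKM in every library, while 6 of 8 leukocyte, 5 of 6 fibroblast and 3 of 4 endothelial markers were under 0.5 in all of them. The 2 squamous exceptions were SOX2, with a mean of 0.160 RPKM in KYSE150 controls, and PKP1, with 0.0746 in KYSE510 controls. Among markers of other cells, CD68 had 29.7 to 47.1 RPKM over all libraries, and CDH5, HLA-DRA and COL1A1 had means of 1.55, 0.956 and 0.628 in KYSE510 controls against 0.0787, 0 and 0.121 in KYSE150 controls. PTPRC, which defines leukocytes, had at most 1 read in any library. Of the markers named here, SOX2, PKP1, CDH5, HLA-DRA and COL1A1 move with the line comparison, and their part in it was not tested. CD68 had similar means in the control lines, 37.5 RPKM in KYSE150 and 39.99 in KYSE510. In bulk RNA, fewer cells of a kind and less RNA per cell cannot be told apart. For 4 members, CXCL3, CCL20, CSF2 and PTX3, the level was too low for the test, which took genes with at least 0.5 RPKM in at least 3 libraries, so 32 were tested.

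TNIP2 (chr4:2741648-2756376, minus strand, GRCh38) encodes an A20-binding inhibitor of NF-kappaB that also binds the kinase complex. In KYSE150 its level was 21.1, 23.2 and 22.8 RPKM in control replicates 1, 2 and 3 and 12.6, 11.4 and 12.03 in silenced replicates. Every silenced library lay below every control, at 53.7% of the control mean, with a log2 difference of -0.87. This is the value that chose the gene, so it carries no test. In KYSE510, whose libraries the choice did not use, TNIP2 had 14.1, 17.3 and 15.3 RPKM in controls and 9.67, 11.1 and 9.68 in silenced libraries. Again no silenced library reached a control, and the mean was 65.3% of control. The difference was -0.59 (SE 0.09; limma adjusted p 0.0667), which misses the threshold of 0.05. The fit shares its estimate of spread over all 12 libraries. The SE and p of TNIP2 in KYSE510 therefore rest in part on the KYSE150 libraries that chose it. With limma fitted to only the 6 KYSE510 libraries, 0 of 17823 genes passed, TNIP2 included. With same-numbered libraries paired in a replicate block the limma adjusted p was 0.0493, and over all alternatives it ran from 0.0402 to 0.361. Over the 6 KYSE510 libraries alone, an exact permutation test (two-sided) gave 0.1, the smallest p that 3 against 3 allow. The KYSE510 change minus the KYSE150 change was 0.28 (SE 0.13), a description since it rests on the same KYSE150 libraries.

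**Figure D1:**
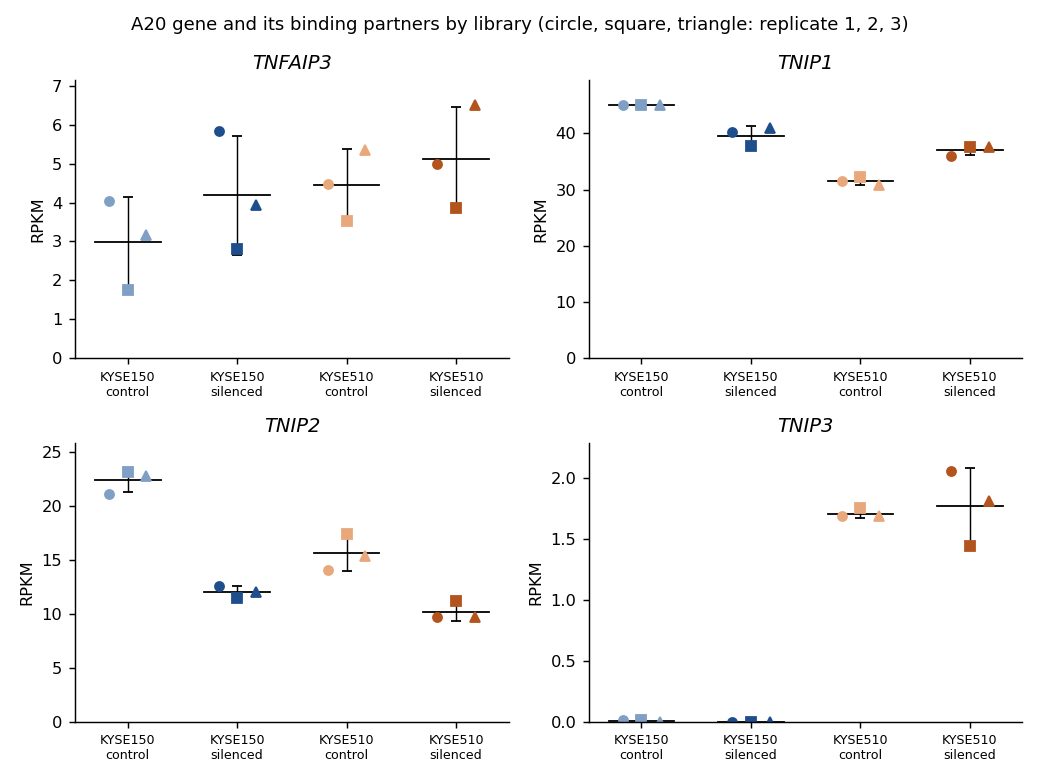
RPKM (y axis, linear from 0) of TNFAIP3, TNIP1, TNIP2 and TNIP3 in the 4 groups, with a point for each library, a line at the mean and bars of 1 SD (n = 3). TNIP2 is lower in every silenced library than in every control of its line, TNIP1 is lower in silenced KYSE150 and higher in silenced KYSE510, and TNIP3 is near 0 in KYSE150.

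TNIP1 (chr5:151029945-151093577), which encodes another A20-binding inhibitor, had the highest mean RPKM of the members in KYSE150 controls. In KYSE150 it had 44.98, 45.03 and 44.99 RPKM in controls and 40.2, 37.7 and 40.9 in silenced libraries, all of these below the controls. In KYSE510 it had 31.5, 32.3 and 30.8 RPKM in controls and 35.9, 37.6 and 37.6 in silenced libraries, all of these above the controls. The KYSE510 difference was 0.23 (SE 0.06; limma adjusted p 0.320), not past the threshold. The difference of the 2 changes was 0.41 (SE 0.08; limma adjusted p 0.314), so they were not shown to differ.

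TNIP3 (chr4:121131408-121227466), the third of these inhibitors, was read almost only in KYSE510. Its level was 1.69, 1.75 and 1.69 RPKM in KYSE510 controls and 0.0132, 0.0129 and 0 in KYSE150 controls. Those values rest on 495 reads against 2, a ratio of 204 with an exact 95% interval of 56.1 to 1687, which covers counting error only. In silenced libraries it had 2.06, 1.45 and 1.81 RPKM in KYSE510 and none in KYSE150. On the fitted scale the line difference was 2.12 (SE 0.11), a description.

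TNFAIP3 (chr6:137867188-137883312), the A20 gene itself, did not differ between control lines past the threshold (log2 difference 0.55, SE 0.29, limma adjusted p 0.124). Its levels were 4.03, 1.75 and 3.17 RPKM in KYSE150 controls, 5.83, 2.81 and 3.94 in KYSE150 silenced libraries, 4.49, 3.52 and 5.35 in KYSE510 controls and 4.98, 3.86 and 6.50 in KYSE510 silenced libraries. The silenced library was the higher of the pair with the same replicate number in all 6 pairs, but the groups overlap in both lines. This is not particular to TNFAIP3, since it held for NFKBIA and IL1A too. Of 32 tested members, 13 were higher in all 3 pairs in KYSE150 and 6 in KYSE510. The share over all genes is not given here. TNIP1 and TNIP2 were both higher in KYSE150 controls than in KYSE510 controls, with KYSE510 minus KYSE150 differences of -0.51 (SE 0.06) and -0.51 (SE 0.09). That of TNIP1 was past the threshold (limma adjusted p 1.61e-05), and that of TNIP2 is a description, since its choice used the KYSE150 controls.

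The 5 REL-family subunits, which make up the dimers, differed by at most 0.56 on the log2 scale between the control lines. RELA, which carries a transactivation domain, had 15.2 ± 0.683 RPKM in KYSE150 and 14.3 ± 0.503 in KYSE510 controls (SD, n = 3). NFKB2, the precursor of p52, had 13.2 ± 1.13 and 11.1 ± 0.189, and RELB, its usual partner, 3.13 ± 0.574 and 2.54 ± 0.138; these 3 did not pass the test. REL and NFKB1 passed it, both higher in KYSE510. REL differed by 0.56 (SE 0.10; limma adjusted p 0.000432), and NFKB1, the precursor of p50, by 0.20 (SE 0.08; limma adjusted p 0.0383). The NFKB1 call was lost without KYSE150 control replicate 1 or 2, KYSE150 silenced replicate 2, KYSE510 control replicate 2 or 3 or KYSE510 silenced replicate 1, with adjusted p values of 0.0929, 0.118, 0.05004, 0.0901, 0.133 and 0.0525. REL shares 50.7% of its exon bases with RP11-373L24.1, which has the same strand, and how shared reads were counted is not given in the sources used here.

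All 5 IkappaB genes passed the test between the lines, as 62.0% of all genes did, 4 higher in KYSE510 and 1 higher in KYSE150, but the NFKBIE call was lost in 3 alternatives (limma adjusted p up to 0.0756). NFKBIA (chr14:35401511-35404749) encodes IkappaBalpha, the inhibitor that NF-kappaB itself induces. Its level was 10.3, 9.63 and 11.2 RPKM in KYSE150 controls and 37.2, 47.5 and 48.3 in KYSE510 controls. The groups lie far apart, 4.27-fold between the means, with a log2 difference of 2.03 (SE 0.10; limma adjusted p 1.45e-08). NFKBIB (chr19:38899700-38908893), the gene of IkappaBbeta, went the other way, with 26.9, 19.8 and 29.6 RPKM in KYSE150 and 12.6, 11.4 and 12.7 in KYSE510 controls. That difference was -1.01 (SE 0.13; limma adjusted p 4.26e-05), and no library of one group reached the other. Among controls, NFKBIA was thus below NFKBIB in every KYSE150 library and above it in every KYSE510 library.

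BCL3 and NFKBIZ encode nuclear IkappaB proteins that act on bound p50 or p52 dimers. BCL3 (chr19:44747705-44760044) had 1.17, 1.80 and 1.33 RPKM in KYSE150 and 5.09, 4.77 and 7.33 in KYSE510 controls, 3.99-fold apart in the mean (log2 difference 1.68, SE 0.19, limma adjusted p 1.69e-05). NFKBIZ (chr3:101827991-101861022) had 0.812, 0.867 and 0.963 and 2.13, 2.17 and 3.35 RPKM (log2 difference 1.12, SE 0.14, limma adjusted p 3.74e-05). Every KYSE510 control was above every KYSE150 control for both genes. NFKBIE, the gene of IkappaBepsilon, was low, at 1.62 ± 0.440 and 2.53 ± 0.515 RPKM (SD, n = 3), with a difference of 0.52 (SE 0.17; limma adjusted p 0.0170). Without KYSE150 control replicate 2 or KYSE510 control replicate 2 that call was lost, at adjusted p values of 0.0667 and 0.0756.

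The 5 kinase genes all passed the test between the control lines, as 62.0% of all genes did, 3 higher in KYSE150 and 2 higher in KYSE510, but the IRAK2 call was lost in 4 alternatives (limma adjusted p up to 0.127). MAP3K14 (chr17:45263121-45317040) encodes NIK, the kinase that starts the non-canonical route, in which NFKB2 is processed. It had 10.9, 11.7 and 12.3 RPKM in KYSE150 controls and 2.38, 2.05 and 2.09 in KYSE510 controls. KYSE150 was 5.34-fold higher, with a log2 difference of -2.18 (SE 0.13; limma adjusted p 7.82e-08). It shares 12.1% of its exon bases with MAP3K14-AS1 on the opposite strand, and the use of strand in counting is not given in the sources used here. CHUK, the gene of IKKalpha, which NIK activates, was also higher in KYSE150, at 7.43 ± 0.669 against 3.56 ± 0.499 RPKM (SD, n = 3; log2 difference -0.97, SE 0.12, limma adjusted p 3.15e-05).

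The other 2 subunits of the kinase complex were higher in KYSE510. IKBKG (chrX:154541199-154565046), the gene of the scaffold NEMO, had 16.6, 17.9 and 15.4 RPKM in KYSE150 and 37.4, 37.6 and 32.9 in KYSE510 controls (log2 difference 1.09, SE 0.09, limma adjusted p 1.20e-06). IKBKG has a near-identical pseudogene, so its reads are uncertain. IKBKB, the gene of IKKbeta, had 1.85 ± 0.125 and 4.01 ± 0.0536 RPKM (SD, n = 3; log2 difference 0.94, SE 0.07, limma adjusted p 7.38e-07). IRAK2, a kinase-like protein of interleukin-1 receptor signalling, was under 1 RPKM in every control and higher in KYSE150 (log2 difference -0.50, SE 0.18, limma adjusted p 0.0302). Its call was lost without KYSE150 control replicate 2 or 3 or KYSE510 control replicate 2, at adjusted p values of 0.0613, 0.0897 and 0.127.

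The 4 TRAF adaptors differed by at most 0.51 on the log2 scale between the control lines. TRAF2 had 13.7 ± 0.845 RPKM in KYSE150 and 10.6 ± 0.0567 in KYSE510 controls (SD, n = 3; log2 difference -0.36, SE 0.07, limma adjusted p 0.000680). TRAF1, itself a known target of the pathway, was low and higher in KYSE510, at 0.364 ± 0.0318 against 0.734 ± 0.0943 RPKM (SD, n = 3), a difference of 0.51 (SE 0.10) that is a description. TRAF3, which holds NIK at a low level in resting cells, had 4.39 ± 0.284 and 4.79 ± 0.292 RPKM, and TRAF6, the adaptor of interleukin-1 and Toll-like receptors, 2.33 ± 0.225 and 2.37 ± 0.314 (SD, n = 3). Neither passed the test (limma adjusted p 0.325 and 0.895).

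**Figure D2:**
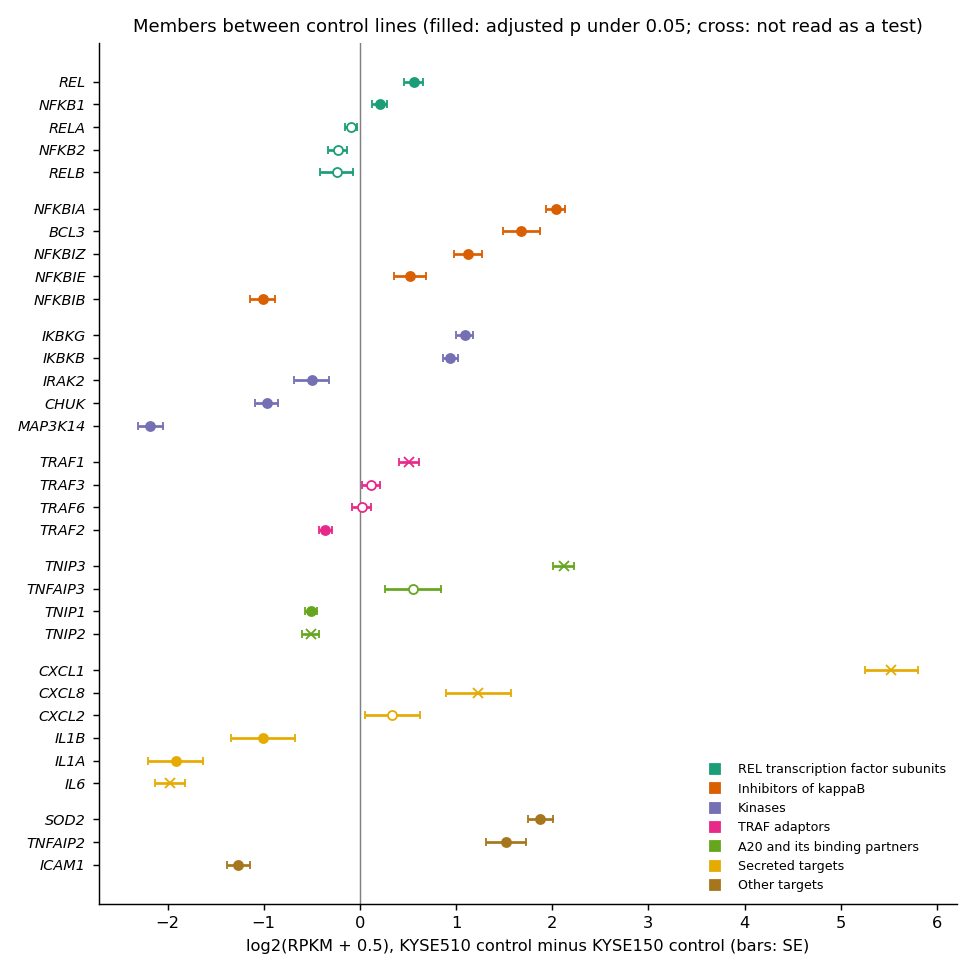
Difference of log2(RPKM + 0.5) between KYSE510 and KYSE150 controls (x axis; bars are SE, positive is higher in KYSE510) for the 32 tested members, grouped by role and filled where the adjusted p was under 0.05; crosses are TNIP2 and the 5 members that reached the filter through 1 line, given as descriptions. CXCL1 (5.53) and MAP3K14 (-2.18) are the extremes, the REL subunits and TRAF adaptors lie within 0.56 of 0, and the secreted targets lie on both sides.

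NF-kappaB dimers bind short kappaB sites, so the members' promoters were searched for 2 kappaB-type words, GGGNNTTTC and GGAANTTCC (N is any base), on both strands and allowing matches to overlap. For 33 of 36 members, RefSeq promoter windows (GRCh38.p14, 250 bases before to 50 after the start) were searched. No window of RELB, NFKBIE or IKBKB was searched, so whether their promoters hold a word was not tested. A word was in a window of 18 of the 33 genes, or in 20 of their 51 windows, while 5.56% of all 35116 windows held one. GGGNNTTTC was found for 16 genes, in 18 of the 51 windows, where 4.78% of all windows held it. GGAANTTCC was found for 10 genes, in 10 of the 51 windows, where 0.965% of all windows held it. The list was made of genes of the pathway and its targets, so these shares are descriptions and not a test. Genes with several windows count more than once among the 51. The sites of 8 targets are shown, since the levels of these genes are described next to them or above. For each, 1 site (overlapping matches joined) is in capitals, with 10 bases on each side. Further matches, not in capitals, start at -177 and -50 from the start site in the NFKBIA window, and at -54 in the TNFAIP3 window, where the match begins within the printed flank.
CXCL1 (chr4:73869304-73869333, plus strand): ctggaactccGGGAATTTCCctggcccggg
CXCL2 (chr4:74099254-74099283, minus strand): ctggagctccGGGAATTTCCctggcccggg
CXCL3 (chr4:74038749-74038778, minus strand): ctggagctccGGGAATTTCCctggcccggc
CXCL8 (chr4:73740468-73740496, plus strand): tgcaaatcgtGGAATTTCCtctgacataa
NFKBIA (chr14:35404811-35404840, minus strand): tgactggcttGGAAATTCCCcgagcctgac
IL6 (chr7:22727117-22727145, plus strand): tatcaaatgtGGGATTTTCccatgagtct
ICAM1 (chr19:10270924-10270952, plus strand): gctttagcttGGAAATTCCggagctgaag
TNFAIP3 (chr6:137867183-137867211, plus strand): cgtgactttgGAAAGTCCCgtggaaatcc
In CXCL1, CXCL2 and CXCL3 the capitals are the same run of letters. The longest identical run between the CXCL1 window and those of CXCL2, CXCL3 and CXCL8 was 42, 25 and 9 bases. A match is only a string of letters, and binding was not measured. No word was found in the TNIP2 window.

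CXCL1, a chemokine that attracts neutrophils, had the largest difference of all tested members between control lines. No read of CXCL1 (chr4:73869393-73871242) was counted in the 3 KYSE150 controls, while KYSE510 controls had 29.1, 16.9 and 23.3 RPKM from 2291 reads. Against a floor of 3 reads over the KYSE150 group, it was at least 629-fold higher in KYSE510. CXCL2 and CXCL3, its neighbours on chromosome 4 with the same capitals in their windows, were far lower in KYSE510 controls, at 1.08 ± 0.171 and 0.358 ± 0.151 RPKM, and at 0.757 ± 0.207 and 0.0843 ± 0.0379 in KYSE150 controls (SD, n = 3). CXCL2 did not differ between lines past the threshold (log2 difference 0.34, SE 0.28, limma adjusted p 0.319). These 3 genes are similar in sequence, so how reads were shared among them is uncertain.

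CXCL8 (chr4:73740506-73743716), the gene of interleukin-8, had 0.351, 0.0643 and 0.252 RPKM in KYSE150 controls and 1.32, 0.748 and 1.57 in KYSE510 controls. The lowest KYSE510 library was above the highest KYSE150 library, with a log2 difference of 1.23 (SE 0.34), a description. CCL20, which attracts lymphocytes and dendritic cells, had 1 read in KYSE150 controls and 48 in KYSE510 controls. CSF2, the gene of the growth factor GM-CSF, had 6 reads in KYSE150 controls and 0 in KYSE510 controls, and PTX3, a soluble pattern-recognition protein, 1 and 7, so these 2 allow no statement on direction.

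The interleukin genes went the other way from CXCL1 and CXCL8. IL6 (chr7:22725884-22732002) had 2.34, 1.20 and 1.60 RPKM in KYSE150 controls and 0.0804, 0.0383 and 0.0351 in KYSE510 controls, 33.4-fold lower in KYSE510, where only 8 reads were counted. Its log2 difference, a description, was -1.97 (SE 0.16). It shares 20.7% of its exon bases with AC073072.5 on the opposite strand. IL1A (chr2:112773915-112784590) had 3.74, 2.71 and 4.15 RPKM in KYSE150 and 0.489, 0.447 and 0.753 in KYSE510 controls (log2 difference -1.92, SE 0.28, limma adjusted p 0.000120). IL1B (chr2:112829751-112836903), its neighbour on chromosome 2, had 6.48, 4.20 and 7.40 and 3.36, 1.88 and 3.01 RPKM (log2 difference -1.004, SE 0.33, limma adjusted p 0.0212). No KYSE510 control reached a KYSE150 control for any of the 3, but the IL1B call was lost without KYSE150 control replicate 1 or 3 or KYSE510 control replicate 2, with adjusted p values of 0.0614, 0.0712 and 0.0850.

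**Figure D3:**
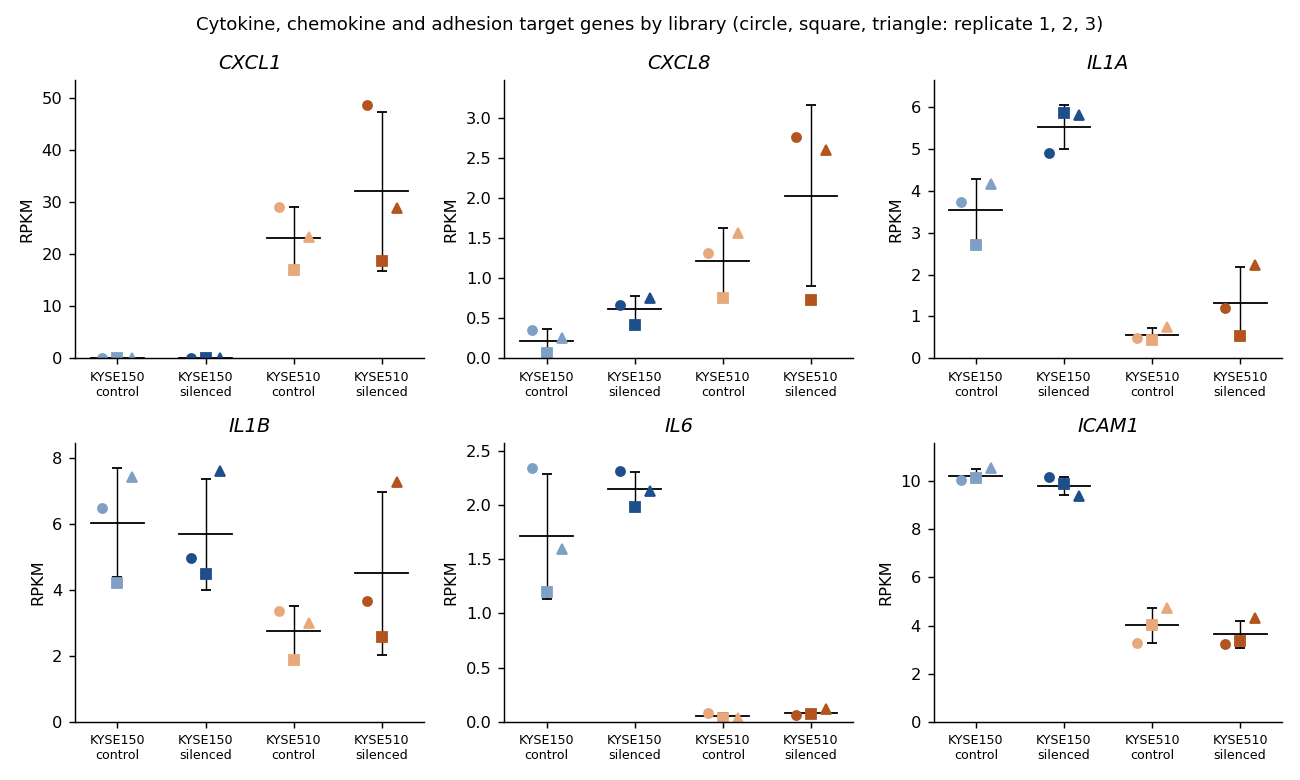
RPKM (y axes, linear from 0) of CXCL1, CXCL8, IL1A, IL1B, IL6 and ICAM1 in the 4 groups, with a point for each library, a line at the mean and bars of 1 SD (n = 3). CXCL1 and CXCL8 are higher in KYSE510 controls than in KYSE150 controls, and IL1A, IL1B, IL6 and ICAM1 are lower.

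Targets that stay in or on the cell were likewise split between the lines. SOD2 (chr6:159669057-159762529), a mitochondrial superoxide dismutase, had 3.09, 3.01 and 3.55 RPKM in KYSE150 controls and 12.1, 12.2 and 15.2 in KYSE510 controls (log2 difference 1.88, SE 0.13, limma adjusted p 2.56e-07). TNFAIP2 (chr14:103123442-103137439), a gene first found as induced by tumour necrosis factor, had 12.9, 21.9 and 11.6 and 42.8, 38.6 and 50.6 RPKM (log2 difference 1.52, SE 0.21, limma adjusted p 5.96e-05). Both were higher in every KYSE510 control. ICAM1 (chr19:10270835-10286615), the adhesion molecule to which leukocytes bind, had 10.03, 10.1 and 10.5 RPKM in KYSE150 and 3.28, 4.03 and 4.74 in KYSE510 controls, with a difference of -1.26 (SE 0.12; limma adjusted p 4.35e-06). On the opposite strand, CTD-2369P2.8 covers 22.0% of the ICAM1 exon bases, and ACAT2 covers 9.74% of those of SOD2.

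In KYSE510, no member passed the threshold after silencing (0 of 32 by limma; 4 at an unadjusted p under 0.05), where 0.0393% of all genes did. With the replicate block, 1 member (TNIP2) did, against 0.112% of all genes. The members' differences ran from -0.59 (TNIP2) to 0.68 (IL1A), with 17 above 0 (43.0% of all genes were) and a median of 0.0029, where the median of all genes was -0.02. Silenced and control libraries did not overlap for 1 member that was higher, TNIP1 (5.22% of all genes), and for 2 that were lower, TNIP2 and IKBKB (6.87% of all genes). IL1A had 1.20, 0.535 and 2.23 RPKM in silenced KYSE510 libraries, IL1B 3.65, 2.57 and 7.27, CXCL1 48.7, 18.6 and 28.9 and CXCL8 2.77, 0.729 and 2.60. Each of these 4 targets overlapped its controls, and its silenced replicate 2 was the lowest of the group. NFKBIA had 47.6 ± 1.52 RPKM in silenced KYSE510 libraries and IKBKG 30.8 ± 2.85 (SD, n = 3), with differences of 0.11 (SE 0.10) and -0.22 (SE 0.09) and limma adjusted p values of 0.943 and 0.726.

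In KYSE150, 0 of the 31 members other than TNIP2 passed the threshold (limma; 5 at an unadjusted p under 0.05), where 0.499% of all genes passed. With the replicate block 3 of these 31 did, NFKBIA, TNFAIP3 and SOD2, all higher, where 6.70% of all genes passed. Leaving out KYSE150 control replicate 3 gave 2, RELA and NFKBIA, leaving out KYSE510 control replicate 1 gave 1, NFKBIA, and voom on recovered reads gave 1, MAP3K14. Nothing is read from these counts, since the choice of TNIP2 used this contrast. The differences ran from -0.87 (TNIP2) to 0.63 (CXCL8) with a median of 0.14, and 23 of 32 were above 0, where 66.1% of all genes were. With each library centred on its median, which shifts the median of all genes by -0.13, 17 of 32 members and 41.1% of all genes were above 0. Libraries did not overlap for 6 members that were higher (13.7% of all genes) and 3 that were lower (5.47% of all genes). The higher 6 were RELA, NFKBIA, TRAF3, CXCL8, IL1A and SOD2, and the lower 3 were TNIP2, TNIP1 and MAP3K14. The deeper sequencing of the silenced libraries moves with this comparison, and its part in the result was not tested.

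Of these, MAP3K14 had 8.19, 8.74 and 6.72 RPKM in silenced KYSE150 libraries, all below the controls given above, a log2 difference of -0.54 (SE 0.13). In KYSE510 its silenced libraries had 1.72, 1.60 and 2.40 RPKM and overlapped the controls (log2 difference -0.16, SE 0.13, limma adjusted p 0.942). CXCL8 had 0.669, 0.421 and 0.750 RPKM in silenced KYSE150 libraries and IL1A 4.91, 5.84 and 5.80, above all controls of that line, with differences of 0.63 (SE 0.34) and 0.59 (SE 0.28). IL1A was also higher in the silenced library of each same-numbered pair in KYSE510, as 6 of 32 tested members were. Nothing is read from that count, since the share over all genes is not given and the pairing was inferred. The IL1A difference there was 0.68 (SE 0.28; limma adjusted p 0.747), not past the threshold. RELA had 19.2, 18.6 and 17.7 RPKM in silenced KYSE150 libraries and NFKBIA 13.5, 14.5 and 14.1, again above all controls, with differences of 0.27 (SE 0.06) and 0.42 (SE 0.10). CXCL1 was at 0.0294, 0 and 0.0572 RPKM in silenced KYSE150 libraries.

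**Figure D4:**
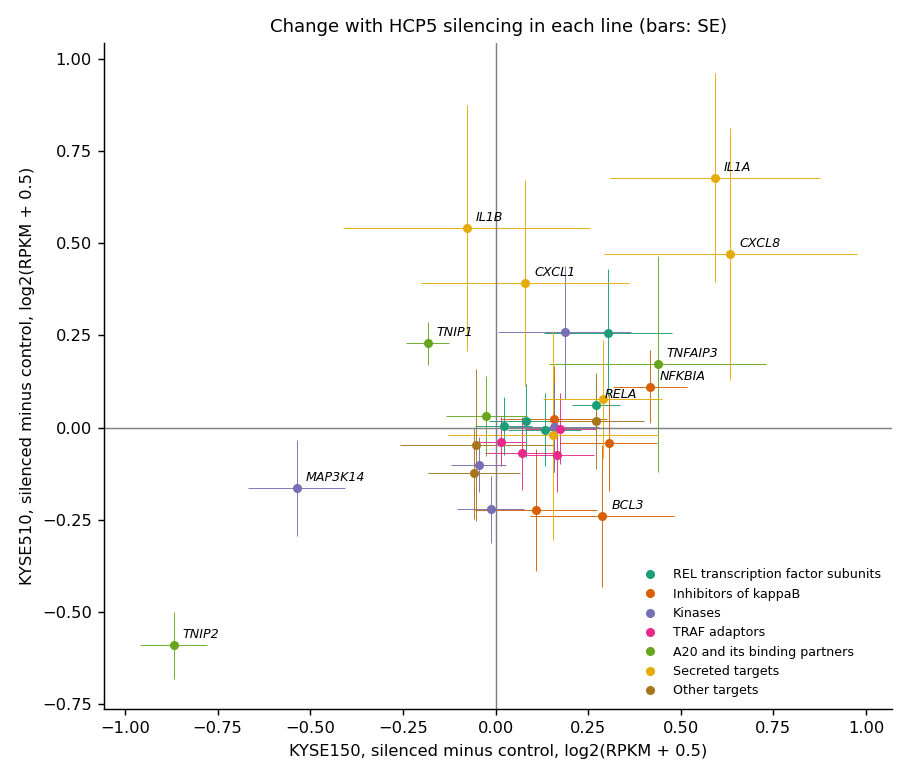
Difference of log2(RPKM + 0.5) between silenced and control libraries in KYSE150 (x axis) and KYSE510 (y axis) for the 32 tested members, coloured by role, with bars of SE. TNIP2 lies alone at the lower left (-0.87 and -0.59), while IL1A (0.59 and 0.68) and CXCL8 (0.63 and 0.47) lie at the upper right with wide bars.

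No member's change differed between the lines past the threshold (0 of 32 by limma; 2 at an unadjusted p under 0.05), where 0.0% of all genes did. So no change above is shown to belong to either line.

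Another 101 genes of the pathway, written from general knowledge, were counted beside the members, and 75 were tested. Between control lines, 28 of the 75 were higher in KYSE510 and 28 higher in KYSE150 (limma), where 28.3% and 33.7% of all genes were, 62.0% in all. With 0.5 RPKM asked of 3 libraries of each line these were 20 and 24 of 63, where 59.1% of genes passed. The largest differences towards KYSE510 were in LCN2, an iron-scavenging defence protein (2.66 RPKM in KYSE150 and 329.6 in KYSE510), the complement genes CFB (0.108 and 10.6) and C3 (3.03 and 31.7), and the chemokine CXCL16 (1.32 and 14.6). Their log2 differences were 6.66, 4.18, 3.23 and 3.03. CFB was under 0.5 RPKM in every KYSE150 library, so it passed the filter through KYSE510 alone, which favours a difference. The CFB difference is therefore a description. The largest towards KYSE150 were in OPTN, a ubiquitin-binding autophagy receptor (17.97 and 3.68 RPKM), CARD10, a scaffold of the CARD-BCL10-MALT1 complex (46.2 and 10.2), the growth factor PDGFB (5.08 and 0.870) and the cytokine LIF (4.60 and 0.978). Their differences were -2.14, -2.13, -2.03 and -1.81. After silencing, 0 of 75 passed in KYSE510 (limma; 9 at an unadjusted p under 0.05, and 0 with the replicate block), where 0.0393% of all genes passed, or 0.112% with the block.

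In KYSE150, 1 of the 75 passed the threshold, where 0.499% of all genes did. It was IL1RAP, the shared subunit of the interleukin-1 receptor. It had 2.07, 1.71 and 1.99 RPKM in controls and 3.02, 2.82 and 3.29 in silenced libraries, a difference of 0.55 (SE 0.10; limma adjusted p 0.0491). This call was lost in 15 of 23 alternatives, among them 10 of the 12 that left out a library (all but those without KYSE150 control replicate 3 and KYSE510 control replicate 1), with limma adjusted p values from 0.0189 to 0.225 over all alternatives. With the replicate block 15 passed, all higher, where 6.70% of all genes did.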

How the data were processed

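RNA was sequenced from 12 libraries of 2 cell lines. Per the submitters' processing notes, HISAT2, DESeq and GRCh38 were named, with no versions. The deposited table holds RPKM, scaled by the authors to exon length and to the reads assigned to genes. RPKM times exon length was a whole multiple of 1 step in 100% of values in all 12 libraries (within 0.02 of a whole number), so reads were recovered; depth was 20035025 to 28202422 reads. An RPKM fold against a group with no reads uses a floor of 3 reads over the group. Intervals and floors cover counting error only.

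Groups came from the labels. limma 3.58.1 in R 4.3.3 was fitted to log2(RPKM + 0.5) over all 12 libraries, with 4 group means, 8 residual degrees of freedom and a mean-variance trend, for the 17823 genes that reached 0.5 RPKM in 3 or more libraries. Fold changes on this scale understate low genes. P-values are two-sided and adjusted by Benjamini-Hochberg over all genes tested, with a threshold of 0.05. The script was tested on simulated data. Alternatives were median centring, quantile normalization, pseudocounts of 0.1 and 1, no filter, RPKM of at least 1 in 6 libraries, a replicate block, only the libraries compared, no trend, voom on recovered reads, 0.5 RPKM in 3 libraries of each line (added after seeing the data), and leaving out each library.

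Replicate numbers come from the titles. Deviations from group means correlated at 0.147 to 0.415 in all 6 same-numbered pairs of a line and at -0.385 to 0.184 otherwise, so the numbers were taken to pair libraries. These ranges overlap, and the labels do not state a pairing. The p-values with the replicate block thus rest on a pairing inferred from these same data.

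The members, the lists and the tests were chosen with earlier results of these data known. Values by library are given for TNIP2, for members past the threshold or without overlap by at least 0.5 (log2) after silencing, and for those past the threshold between control lines by at least 1 (log2) with a mean RPKM of at least 1. Of the 101 other pathway genes, up to 4 per control line and those past the threshold after silencing were named. TNIP1 and TNFAIP3 by library, and the silenced levels of RELA, NFKBIA, IL1B and CXCL1, fall outside that rule and were picked after their values were seen. Gene positions are those of the deposited table. Promoters are from RefSeq, GRCh38.p14.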

Additional observations from a re-analysis of the deposited data

Results flagged for a closer look

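TNIP1 moved in opposite directions in the lines, with every silenced library below every control in KYSE150 and above every control in KYSE510. The KYSE510 change minus the KYSE150 change was 0.41 (SE 0.08), from -0.18 in KYSE150 and 0.23 in KYSE510. The test of this difference by limma gave an adjusted p of 0.314 (0.0912 to 0.665 over the alternatives), so it did not pass.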

How the results depend on the processing

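The count of members past the threshold after silencing in KYSE510, 0, became 1 (TNIP2) with no filter and 1 (TNIP2) with the replicate block, and was 0 in all fits that left out a library. In KYSE150 the count of 1 became 4 with the replicate block (TNIP2, NFKBIA, TNFAIP3 and SOD2) and 2 with voom on recovered reads (TNIP2 and MAP3K14). It ran from 1 to 3 when single libraries were left out, with 3 without KYSE150 control replicate 3 (TNIP2, RELA and NFKBIA) and 2 without KYSE510 control replicate 1 (TNIP2 and NFKBIA). These KYSE150 counts include TNIP2, which was chosen on this contrast, and nothing is read from them. Between control lines the count of 25 ran from 21 to 26 when single libraries were left out and was 20 with the filter on each line, and 0 members differed in their change between lines in every alternative. The comparison of control lines lies between blocks and has no blocked value. The block changed no other member's call. Among the named differences, 2 changed sign, and neither was past the threshold in any fit: NFKBIA after silencing in KYSE510, -0.010 without KYSE510 control replicate 1 (-0.010 to 0.18 when single libraries were left out), and TRAF6 between control lines, negative without KYSE150 control replicate 1 or 2 or KYSE510 control replicate 2 or 3 (-0.038 to 0.11 over all 12 left out). The calls between control lines that were lost in some fits were those of NFKB1, NFKBIE, IRAK2 and IL1B, and the IL1RAP call in KYSE150 was lost in 15 of 23 alternatives. The cause of these changes was not tested. Members under 0.5 RPKM rest on few reads, which limits CXCL3, CCL20, CSF2 and PTX3.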

Other observations

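Values after silencing in KYSE150 are given here for 4 other pathway genes. SAA1, an acute-phase apolipoprotein, had 2.28, 1.46 and 1.27 RPKM in controls and 6.37, 5.05 and 3.20 in silenced libraries, with a difference of 1.29 (SE 0.29; limma adjusted p 0.0770). Its neighbour SAA2 had 0.515, 0.503 and 0.673 and 1.66, 1.15 and 1.42 RPKM (difference 0.84, SE 0.20, limma adjusted p 0.0964). These genes are near-identical copies, so their reads are uncertain. IER3, an early-response gene, and PLAU, the urokinase gene, had 43.4 ± 16.2 and 13.6 ± 4.50 RPKM in controls and 70.9 ± 12.7 and 22.4 ± 5.79 in silenced libraries (SD, n = 3). None of the 4 passed the threshold, though SAA2 and IER3 did without KYSE150 control replicate 3 (adjusted p 0.0456 and 0.0347), and with the replicate block the limma adjusted p values were 0.00793, 0.0195, 0.0287 and 0.0181. In KYSE510 their differences were 0.27, 0.46, 0.30 and 0.39. These 4 were picked after their values were seen.

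The library with replicate number 2 was the lowest of its group in all 4 groups for 5 of 32 members: TNFAIP3, CXCL2, CXCL8, IL1B and NFKBIB. Over all genes tested this held for 3.79%. Replicate 1 was the lowest in all groups for 2 members (8.47% of all genes) and replicate 3 for 1 (2.87%). The labels do not say what a replicate number stands for, and the pattern was noticed in these data and not tested.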
